A study of Rattus norvegicus with 4 samples.

Results

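The miRNAs miR-125a and miR-125b were followed in small RNA of rat exosomes, which are small vesicles shed by cells. They were taken by hairpin name (rno-mir-125a and rno-mir-125b, a trailing copy number removed), so no measured value chose them. They made up 2 of the 262 named miRNA genes, 3 of the 302 named hairpins and 4 of the 348 mature arm forms with a count. Exo-AT are exosomes of minced adipose tissue explants from rats labelled SD, aged 4 weeks, held in a stirred flask of 75 mL at 100 rpm for 3 days. Exo-ADSCs are exosomes of adipose-derived stem cells at passage 3, held in serum-free medium for 3 days. The sources used here name no strain for the cells and do not say whether tissue or cells of several animals were pooled or whether the replicates are separate animals or cultures. A p-value therefore measures only the spread between these libraries, which may be technical. Of the 4 libraries in 2 groups, 3 gave tag counts (a tag is a distinct read sequence): replicate 2 of the cells, here Exo-ADSCs2, and both replicates of the tissue, here Exo-AT1 and Exo-AT2. Both Exo-AT tag files bear 1 and the same internal sample name, and every SD and p-value below rests on the spread between these libraries.

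Counts on named miRNAs were 97204 in Exo-ADSCs2, 9134 in Exo-AT1 and 136024 in Exo-AT2. A count of 0 therefore allows up to 30.9, 328 and 22.1 CPM, where CPM relates a count to all named-miRNA counts of its library, a limit that covers counting error only. Of all counts assigned to a hairpin, 86.4%, 39.9% and 24.9% lay on hairpins that the authors predicted themselves. Exosome RNA of a tissue comes from many cell types, and more vesicles from a cell type cannot be told apart from more miRNA per vesicle.

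miR-125 miRNAs are the vertebrate relatives of lin-4, the worm miRNA that times larval development. The hairpin's 5p arm is usually the one loaded into Argonaute, and its seed (bases 2 to 8) pairs with messenger RNAs such as those of Lin28 and p53. miR-125b is known as an abundant miRNA of mesenchymal and blood stem cells and as a brake on the formation of brown-like fat cells. The genes sit in clusters with members of the miR-99/100 and let-7 families. In the RefSeq annotation of the GRCr8 assembly, Mir125a neighbours Mir99b and Mirlet7e and lies within the span of Spaca6. Mir125b1 neighbours Mir100 and Mirlet7a-2 within the spans of Mir100hgl and Lnc215. Mir125b2 neighbours Mir99a and Mirlet7c1 within the long non-coding LOC103693508, and the miRNA gene Mir3588 also spans Mir125b2. Mir3596c and Mir3596a are further miRNA neighbours of Mir125a and Mir125b1. Whether these overlaps are exonic or intronic was not examined.

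The mature sequences are shown because the arms differ in how they divide the family. They come from RefSeq (GRCr8), whose miRNA table held all 3 hairpins, and capitals mark the seed. The 5p arms of miR-125a and miR-125b share a seed with each other and with miR-351-5p.
miR-125a-5p: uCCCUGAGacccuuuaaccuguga
miR-125b-5p: uCCCUGAGacccuaacuuguga
miR-351-5p: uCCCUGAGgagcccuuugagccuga
The 3p arms have a different seed at each hairpin, so the copies of miR-125b can be told apart only there.
miR-125a-3p: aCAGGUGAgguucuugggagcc
miR-125b-1-3p: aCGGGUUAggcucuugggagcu
miR-125b-2-3p: aCAAGUCAggcucuugggaccu
miR-125a-5p is 24 nt and miR-125b-5p 22 nt long, and they share their first 13 bases and their last 5. In GRCr8, miR-125a-5p lies at chr1:67350689-67350712 and miR-125a-3p at chr1:67350727-67350748, on the plus strand. The 5p arm from Mir125b2 lies at chr11:29732588-29732609, and miR-125b-2-3p at chr11:29732627-29732648, on the plus strand. miR-125b-1-3p lies at chr8:50850090-50850111 on the plus strand, and miR-351-5p at chrX:137725157-137725181 on the minus strand.

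Hairpins as the deposited tag files give them show where each arm lies, with the arms in capitals.
rno-mir-125a: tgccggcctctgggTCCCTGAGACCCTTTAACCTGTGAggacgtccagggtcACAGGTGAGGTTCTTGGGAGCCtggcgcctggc
rno-mir-125b-1: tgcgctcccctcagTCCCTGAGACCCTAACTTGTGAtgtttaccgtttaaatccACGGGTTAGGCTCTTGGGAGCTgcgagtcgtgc
The 5p arm is the same in both miR-125b hairpins, so a 5p read names miR-125b but not its copy. No miR-125 tag was also aligned to a hairpin of another name.

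miR-125b-5p was higher in Exo-AT, miR-125a-5p and miR-125b-3p did not pass the test, and miR-125a-3p was counted only in Exo-ADSCs2. Levels below are TMM-scaled CPM, a scaling that allows for differences in library makeup. miR-125b-5p had 30 counts in Exo-ADSCs2, 46 in Exo-AT1 and 446 in Exo-AT2, or 468, 3636 and 3034 CPM. The Exo-AT libraries lay close together, at 3335 ± 426 CPM (SD, n = 2), and both were far above the Exo-ADSCs library. The log2 fold change of miR-125b-5p (Exo-AT over Exo-ADSCs) was 2.82 with an SE of 0.52 and an adjusted p of 1.7e-06 (edgeR quasi-likelihood test, Benjamini-Hochberg over all miRNAs tested). Of the 183 miRNAs tested, 19.1% were called higher and 19.1% lower, 38.3% in all, and the median log2 fold change was 0.37. miR-125b-5p was the 73rd most abundant named miRNA in Exo-ADSCs2, and it ranked 19th and 25th in the Exo-AT libraries. Its log2 fold change ranked 46th of the 183. When the authors' predicted hairpins entered the same fit as further features, the log2 fold change of miR-125b-5p was 2.85 with an adjusted p of 0.535. In that fit edgeR called 0 of 401 features, with 25 at an unadjusted p under 0.05, and no other tool was run on it. With the tested Exo-ADSCs group at 1 library, the fit assumes that this library varies as the Exo-AT pair does.

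miR-125a-5p had 10, 6 and 77 counts in the same order, which gave 156 CPM in Exo-ADSCs2 and 474 and 524 CPM in the Exo-AT libraries. The Exo-AT mean was 499 ± 35.0 CPM (SD, n = 2). The log2 fold change of miR-125a-5p was 1.69 with an SE of 1.04, and it was not called (edgeR, Benjamini-Hochberg adjusted p = 0.206). It rests on 10 counts in Exo-ADSCs2 and 6 in Exo-AT1. Whether the fold changes of miR-125b-5p and miR-125a-5p differ was not tested.

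The 3p arms, usually the discarded strand, gave few reads. miR-125b-3p had 14 counts in Exo-ADSCs2, 3 in Exo-AT1 and 20 in Exo-AT2, or 218, 237 and 136 CPM. The groups overlapped, with 1 Exo-AT library above and 1 below the Exo-ADSCs library. The log2 fold change of miR-125b-3p was -0.41 with an SE of 1.40 (edgeR, Benjamini-Hochberg adjusted p = 0.841), and its sign turned with total-count scaling, to 0.42. miR-125a-3p had 6 counts (93.5 CPM) in Exo-ADSCs2 and 0 in both Exo-AT libraries. It had too few counts for the test. With Exo-AT set to 3 counts over the group, miR-125a-3p was at least 4.98-fold lower there by TMM scaling and at least 2.99-fold lower by total counts. These bounds take the 6 counts of Exo-ADSCs2 as exact and leave out their counting error, so a smaller fold is possible. In Exo-AT1 the limit of 3 counts lies above the level seen in Exo-ADSCs, so the bound rests on Exo-AT2.

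**Figure D1:**
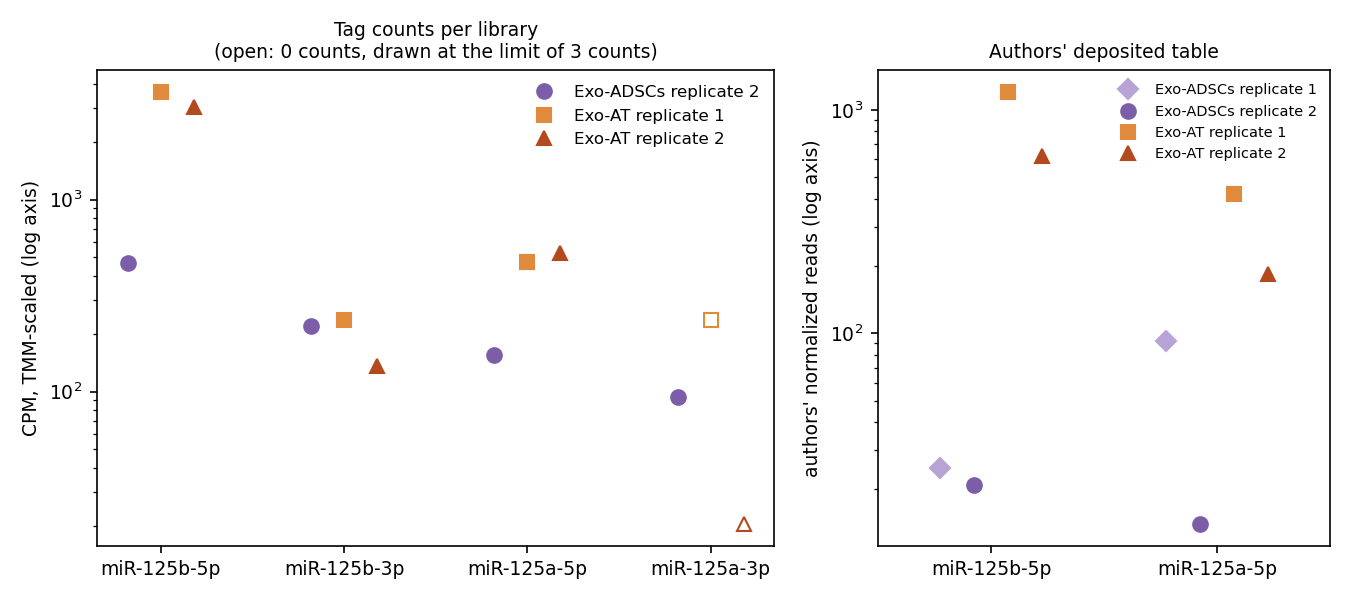
Left, TMM-scaled CPM (log axis) of each miR-125 arm form in the 3 libraries with tag counts, open symbols marking 0 counts drawn at the limit of 3 counts; right, the authors' normalized reads (log axis) in all 4 libraries. miR-125b-5p lies at 3636 and 3034 CPM in Exo-AT against 468 in Exo-ADSCs2, while the miR-125b-3p values of the groups overlap.

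The authors' deposited table, which lists 45 miRNAs as raised in Exo-AT, gives the only miR-125 values for Exo-ADSCs1. Its rows were selected by the authors for this difference, so its values are a description. In the authors' deposited table miR-125b-5p has 1203 and 624 normalized reads in Exo-AT1 and Exo-AT2, and 25 and 21 in Exo-ADSCs1 and Exo-ADSCs2. Here both Exo-ADSCs values lie near each other and far below both Exo-AT values. In the authors' deposited table the fold of miR-125b-5p is 28.0, the third largest of the 45. miR-125a-5p has 419 and 185 normalized reads in Exo-AT and 92 and 14 in Exo-ADSCs in the authors' deposited table. These Exo-ADSCs values are far apart, though still below both Exo-AT values. The fold of miR-125a-5p in the authors' deposited table is 4.95, which ranks 38 of 45.

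Within a library, miR-125b-5p exceeded miR-125a-5p in each of the 3 libraries with tag counts, a ratio that needs no scaling between libraries. It had 3 times the counts of miR-125a-5p in Exo-ADSCs2, 7.67 times in Exo-AT1 and 5.79 times in Exo-AT2. The log2 ratio of miR-125a-5p to miR-125b-5p was -1.58 (95% interval -2.60 to -0.57, from Wilson bounds), -2.94 (-4.13 to -1.75) and -2.53 (-2.88 to -2.19). The intervals overlap, and they cover counting error only. With tags of 20 to 25 nt alone the log2 ratio in Exo-ADSCs2 was 0.32 (-0.98 to 1.62). miR-125a-5p was then the larger there, with 10 counts against 8, since most miR-125b-5p reads in Exo-ADSCs2 were shorter. In the authors' deposited table miR-125b-5p is 2.87 and 3.37 times miR-125a-5p in Exo-AT1 and Exo-AT2 and 1.5 times in Exo-ADSCs2. It is 0.272 times miR-125a-5p in Exo-ADSCs1, the only library of that table where miR-125a-5p is the larger.

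The libraries differed in which forms of miR-125b-5p they held. In Exo-ADSCs2 most reads ended before the 20th base, and in both Exo-AT libraries the whole mature miRNA led. The leading tags are shown with their seed in capitals, bases 2 to 8 of the tag itself.
whole: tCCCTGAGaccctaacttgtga
ending early, 20 nt: tCCCTGAGaccctaacttgt
ending early, 17 nt: tCCCTGAGaccctaact
ending early, 16 nt: tCCCTGAGaccctaac
1 base longer: tCCCTGAGaccctaacttgtgaa
starting 1 base late: cCCTGAGAccctaacttgtga
starting 1 base late, ending early: cCCTGAGAccctaacttgt
starting 1 base early: aTCCCTGAgaccctaac
The whole form had 0 of 30 counts in Exo-ADSCs2, which allows a share of up to 10%. It had 20 of 46 counts (43.5%) in Exo-AT1 and 180 of 446 (40.4%) in Exo-AT2. The 17-nt form had 16, 2 and 28 counts in the 3 libraries, and the 16-nt form had 6, 0 and 48. The form 1 base longer, whose last base does not match the hairpin, had 8 counts in Exo-ADSCs2 and 0 in both Exo-AT libraries. These 3 forms were all that Exo-ADSCs2 held, against 8 and 15 distinct tags in the Exo-AT libraries. These numbers come from 30, 46 and 446 counts, and tags of fewer than 2 reads are absent from the deposited counts. All 8 tags of Exo-AT1 were also found in Exo-AT2, and 2 of the 3 Exo-ADSCs tags were.

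Tags shorter than 20 nt were 22 of 30 counts of miR-125b-5p in Exo-ADSCs2, or 73.3% (Wilson 95% interval 55.6 to 85.8%). They were 12 of 46, or 26.1% (15.6 to 40.3%), in Exo-AT1 and 150 of 446, or 33.6% (29.4 to 38.1%), in Exo-AT2. The interval of Exo-ADSCs2 lies above both others, while those of the Exo-AT libraries overlap. With 1 library in a group there is no test of this difference. Short tags were also more frequent over all named miRNAs in Exo-ADSCs2, at 55.1% against 19.2% and 15.5%. With tags of 20 to 25 nt alone, miR-125b-5p had a log2 fold change of 3.34 and was still called higher (edgeR, Benjamini-Hochberg adjusted p = 0.0139). That value rests on 8 counts in Exo-ADSCs2, all of the form 1 base longer whose last base does not match the hairpin. A total of 49 miRNAs had 10 or more counts in every library. Among these, the excess of short tags in Exo-ADSCs2 over the Exo-AT mean was 43.5 percentage points for miR-125b-5p, the 10th largest. The median was 6.18 points, and 31 of the 49 had more short tags in Exo-ADSCs2. The mean tag length of miR-125b-5p was 18.4, 20.4 and 19.9 nt.

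miR-125a-5p, the member with the longer annotated sequence, had no tag shorter than 20 nt in any library: 0 of 10, 0 of 6 and 0 of 77 counts. These counts allow shares of up to 30%, 50% and 3.90%. Its forms differed mainly in their last bases, and capitals again mark bases 2 to 8 of the tag.
whole: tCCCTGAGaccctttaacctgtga
22 nt: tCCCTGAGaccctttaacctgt
23 nt: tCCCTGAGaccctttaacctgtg
last base not matching: tCCCTGAGaccctttaacctgtgt
The whole form had 0 of 10, 3 of 6 and 31 of 77 counts in Exo-ADSCs2, Exo-AT1 and Exo-AT2. The 22-nt form had 4, 0 and 30 counts, and the 23-nt form was counted only in Exo-ADSCs2, with 3. The form whose last base does not match the hairpin had 0, 3 and 7 counts. In Exo-AT2 the miR-125 5p arms had close shares of whole forms, 40.4% for miR-125b-5p and 40.3% for miR-125a-5p, while short tags were 33.6% and 0%. Mean tag lengths of miR-125a-5p were 23.2, 24 and 22.9 nt.

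**Figure D2:**
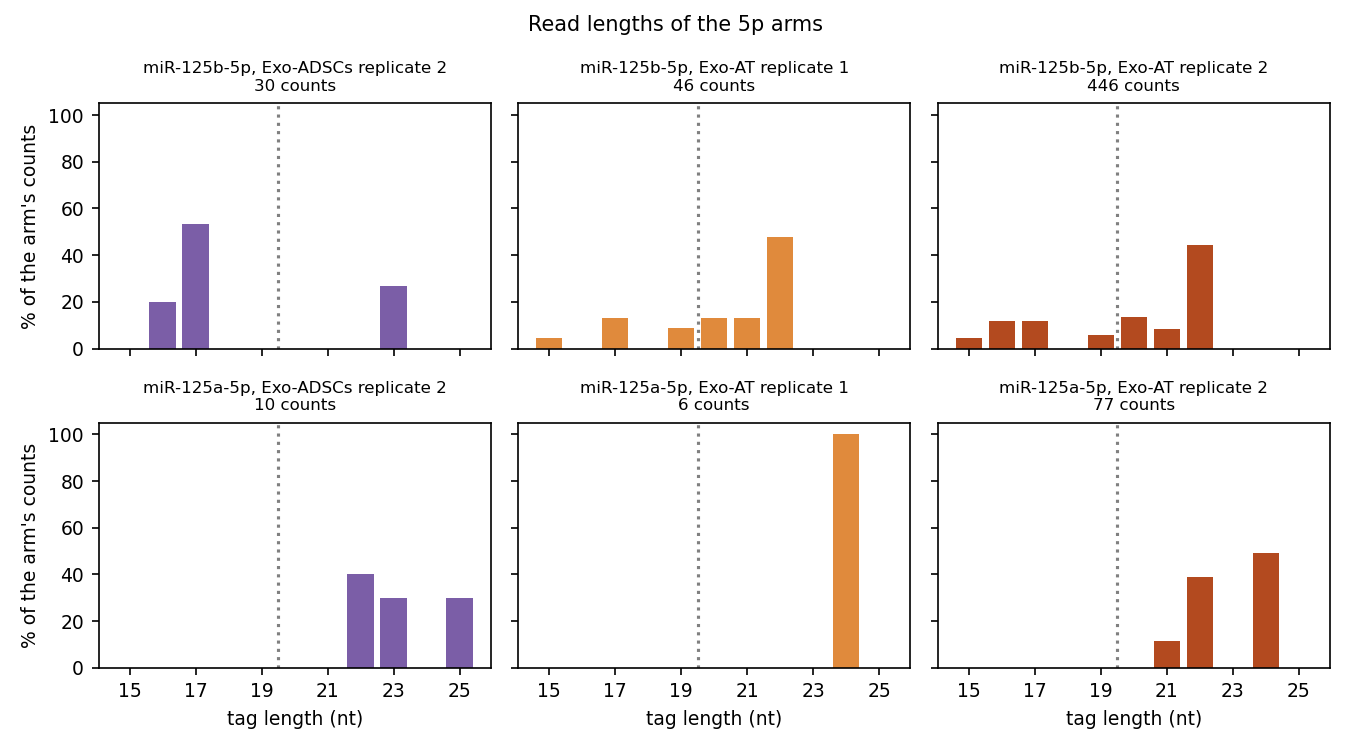
Share of each 5p arm's counts (vertical axis, percent) by tag length in nt (horizontal axis), with 1 panel per library, miR-125b-5p above and miR-125a-5p below; the dotted line parts tags shorter than 20 nt. miR-125b-5p is mostly 16 and 17 nt long in Exo-ADSCs2, 22 nt is its leading length in both Exo-AT libraries, and miR-125a-5p has no tag left of the line.

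The start of a miRNA sets its seed. In Exo-ADSCs2 all 30 counts of miR-125b-5p began at the annotated base. In Exo-AT 28 of 46 counts (60.9%) and 326 of 446 (73.1%) did. Tags beginning 1 base later, whose seed is CCTGAGA in place of CCCTGAG, made up 12 of 46 counts (26.1%) and 80 of 446 (17.9%) in Exo-AT. None of the 30 counts of Exo-ADSCs2 began there, which allows a share of up to 10%. The upper Wilson bound in Exo-ADSCs2, 11.4%, lies below the lower bounds in Exo-AT, 15.6% and 14.7%. Tags of fewer than 2 reads are absent from the deposited counts, so late starts spread over single reads would be missed. These limits do not allow for that. Tags beginning 1 base earlier made up 6 of 46 counts (13.0%) and 40 of 446 (8.97%) in Exo-AT and 0 of 30 in Exo-ADSCs. Tags whose first base does not match the hairpin made up 13.0% and 10.8% in Exo-AT, which overlaps with the early starts. Among tags with no mismatch, early starts were 0 of 40 counts in Exo-AT1 and 4 of 398 (1.01%) in Exo-AT2. miR-125a-5p began at the annotated base in 7 of 10, 6 of 6 and 74 of 77 counts, so its start was the more uniform of the pair in Exo-AT2.

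Reads of the 3p arm were a larger share of miR-125b in Exo-ADSCs2 than in Exo-AT. The 3p arm gave 31.8% of miR-125b counts there (Wilson 95% interval 20 to 46.6%, 14 of 44 counts). It gave 6.12% (2.10 to 16.5%) in Exo-AT1 and 4.29% (2.80 to 6.54%) in Exo-AT2. The interval of Exo-ADSCs2 lies above both others. In edgeR's test of arm use over the 24 hairpins with both arms tested, added after the data were seen, the 3p arm of miR-125b had a log2 change relative to its hairpin of -1.90 and was not called (Benjamini-Hochberg adjusted p = 0.119). That test called 4.17% of the 24 hairpins. With tags of 20 to 25 nt alone the change was -2.25 and was called (edgeR, Benjamini-Hochberg adjusted p = 0.00303), the 3p share then being 63.6%, 8.11% and 6.33%. All miR-125b-3p tags lie within that window, so these higher shares come from the 5p reads it leaves out. In Exo-ADSCs2 it left 8 counts of the 5p arm, all of a tag whose last base does not match the hairpin. In Exo-ADSCs2 the 3p arm of miR-125a gave 37.5% of that hairpin's counts (6 of 16, interval 18.5 to 61.4%). It gave 0 of 6 and 0 of 77 in the Exo-AT libraries, which allows up to 50% and 3.90%.

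The copies of miR-125b, which only the 3p arm tells apart, took different shares. The leading 3p tags are shown for this reason, with bases 2 to 8 of the tag in capitals.
miR-125b-1-3p: aCGGGTTAggctcttgggag
miR-125b-2-3p, annotated start: aCAAGTCAggctcttgggac
miR-125b-2-3p, starting early: tCACAAGTcaggctcttgggac
miR-125b-2-3p, starting early: aTCACAAGtcaggctcttggga
miR-125a-3p: aCAGGTGAggttcttgggagc
miR-125b-1-3p had 10 counts (156 CPM) in Exo-ADSCs2 and 0 in both Exo-AT libraries. With Exo-AT set to 3 counts over the group it was at least 8.29-fold lower there by TMM scaling, or at least 4.98-fold by total counts. Here too the 10 counts of Exo-ADSCs2 are taken as exact, so a smaller fold is possible. In Exo-AT1 the limit of 3 counts lies above the level of miR-125b-1-3p in Exo-ADSCs2, so this bound also rests on Exo-AT2. Its counts were too few for the test. miR-125b-2-3p had 4, 3 and 20 counts, or 62.3, 237 and 136 CPM. Its log2 fold change was 1.37 with an SE of 1.98 and was not called (edgeR, Benjamini-Hochberg adjusted p = 0.609). Copy 1 thus gave 71.4% (Wilson 95% interval 45.4 to 88.3%) of 14 miR-125b-3p counts in Exo-ADSCs2. It gave 0 of 3 in Exo-AT1 and 0 of 20, which allows up to 15%, in Exo-AT2. miR-125b-2-3p began before its annotated base in 0 of 4 counts of Exo-ADSCs, and in 3 of 3 and 18 of 20 counts of Exo-AT. These shares rest on 27 counts over the libraries.

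**Figure D3:**
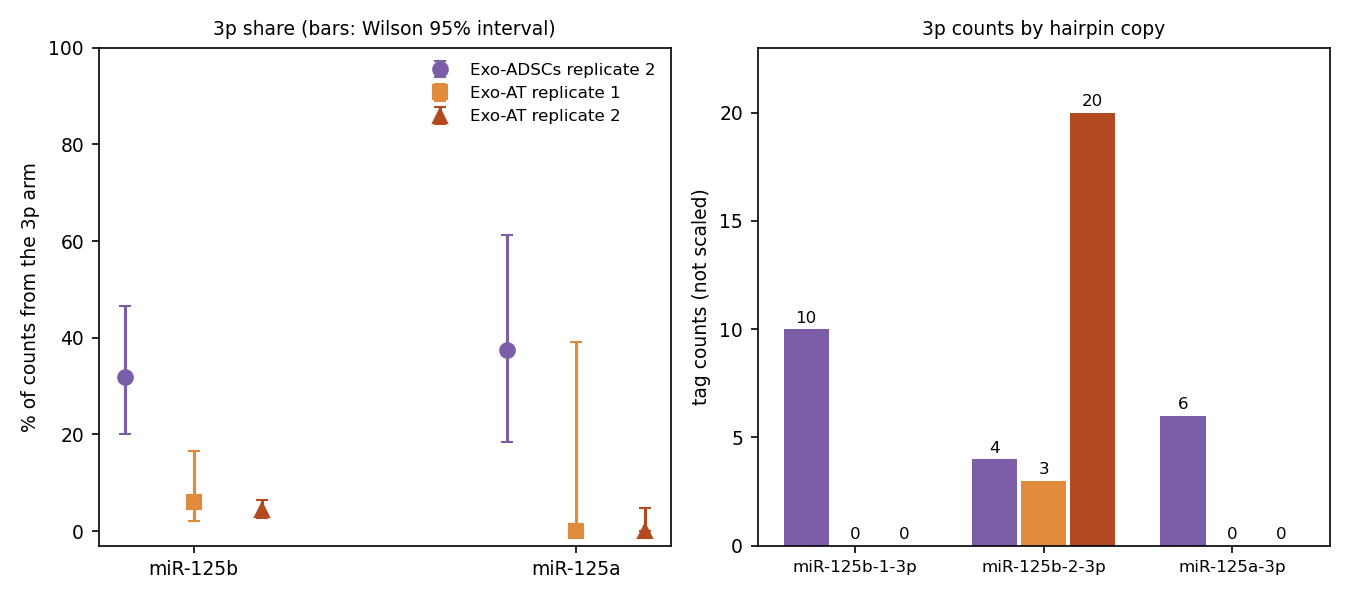
Left, the percent of each hairpin family's counts that came from the 3p arm, by library, with Wilson 95% intervals as bars; right, 3p tag counts (not scaled) by hairpin copy and library. Exo-ADSCs2 has 3p shares of 31.8% and 37.5%, and all 10 counts of miR-125b-1-3p and all 6 of miR-125a-3p.

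The miR-99/100 and let-7 members of the clusters differed in direction among themselves. Of the 11 arm forms of cluster neighbours with counts, 8 were tested, of which 1 was called higher in Exo-AT, 4 lower and 3 not. Their median log2 fold change was -1.87, beside 1.69 for the 3 tested miR-125 forms (1 of 3 called higher, 0 lower) and 0.37 for all 183 tested.

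Beside miR-125a, miR-99b-5p was the most abundant named miRNA of Exo-ADSCs2. It had 338831 CPM there and 23081 and 22930 CPM in Exo-AT, and it was lower in Exo-AT with a log2 fold change of -3.88 (SE 0.25, edgeR, Benjamini-Hochberg adjusted p = 5.4e-34). With tags of 20 to 25 nt alone that value was -0.44 and was not called (edgeR, Benjamini-Hochberg adjusted p = 0.304). let-7e-5p had 16, 5 and 15 counts and a log2 fold change of -0.43, and miR-99b-3p one of 0.05, neither called.

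Beside miR-125b-1, miR-100-5p had 155670 CPM in Exo-ADSCs2 and 18180 and 17475 CPM in Exo-AT, a log2 fold change of -3.13 that was called lower. It was 0.35 and not called with tags of 20 to 25 nt. let-7a-5p, which other let-7a copies also encode, had a log2 fold change of -5.67 and let-7a-3p one of -3.77, both called lower. The let-7a-3p call (edgeR, Benjamini-Hochberg adjusted p = 0.0208) was lost under 5 alternatives, with adjusted p from 0.0525 to 0.16.

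Beside miR-125b-2, miR-99a-5p was the only neighbour called higher in Exo-AT, at 1855 CPM in Exo-ADSCs2 and 41814 and 40065 CPM in Exo-AT, a log2 fold change of 4.46 (SE 0.36). let-7c-5p, whose counts are not limited to the copy in this cluster, had 2930, 2213 and 1714 CPM. Its log2 fold change was -0.61, which was not called, and -1.61, which was called, with tags of 20 to 25 nt. With the predicted hairpins in the fit, none of these neighbours was called (0 of 401 features, as above).

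**Figure D4:**
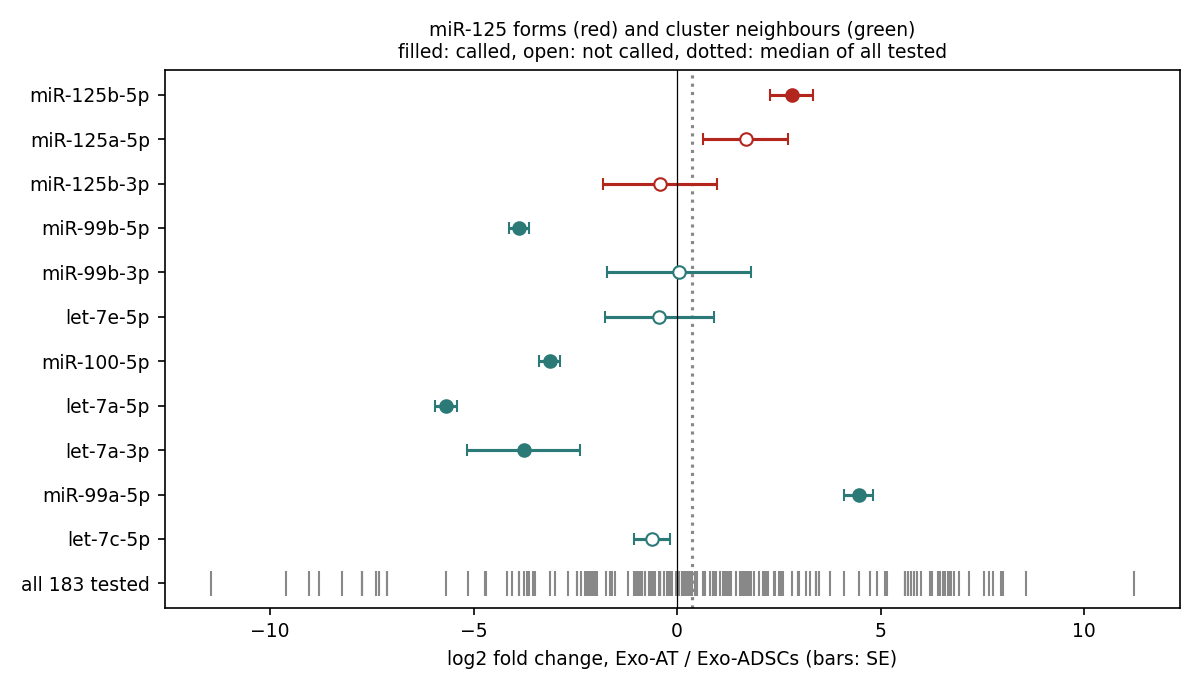
log2 fold change of Exo-AT over Exo-ADSCs (horizontal axis, bars are SE) for the tested miR-125 forms in red and their cluster neighbours in green, filled where called, with a tick for each of the 183 tested miRNAs in the lowest row and a dotted line at their median. miR-125b-5p lies at 2.82 and miR-99a-5p at 4.46, while miR-99b-5p, miR-100-5p and let-7a-5p lie between -5.67 and -3.13.

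Of the relatives that share the 5p seed, miR-351-5p had 4, 0 and 120 counts in Exo-ADSCs2, Exo-AT1 and Exo-AT2, and miR-670 had none. The counts in Exo-AT come from 1 library, and the limit that a count of 0 allows in Exo-AT1 lies above the level in Exo-ADSCs2. miR-351-5p was called higher in Exo-AT with a log2 fold change of 3.01 and an SE of 1.16 (edgeR, Benjamini-Hochberg adjusted p = 0.0289). The call was lost in 7 of 10 alternative settings. Without Exo-AT1 the log2 fold change was 3.69, a value with no test. Without Exo-AT2 the group is at 0 counts, so the fitted value depends on the prior count and gives no direction.

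The miRNAs whose levels over the 3 libraries were most like those of the 5p arms were found by distance on centred log2 CPM among 180 candidates. For miR-125b-5p these were miR-19b-3p at a distance of 0.275, miR-409a-3p at 0.339 and miR-127-3p at 0.389. For miR-125a-5p they were miR-128-3p at 0.224, miR-425-5p at 0.366 and miR-151-5p at 0.395. miR-19b-3p had 62.3, 632 and 429 CPM, and miR-128-3p had 171, 632 and 578 CPM. With 3 libraries, any miRNA that is low in Exo-ADSCs2 and alike in Exo-AT lies near these profiles.

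Marker miRNAs of cell types were set beside the miR-125b-5p result, as summed TMM-scaled CPM in Exo-ADSCs2, Exo-AT1 and Exo-AT2. The calls below stand beside 19.1% called higher and 19.1% lower over all 183 tested miRNAs. With predicted hairpins in the fit, 0 of 401 features were called. The mesenchymal stromal list had 310561, 168836 and 147777 CPM, with 5 of 8 members called lower in Exo-AT and 0 higher. Most of its sum was miR-143-3p, at 235991, 139432 and 119303 CPM. By total counts miR-143-3p had 155786, 193125 and 128940 CPM, so the order of the libraries depends on the scaling. The adipocyte list had 13325, 21579 and 26719 CPM, with 3 of 6 tested members higher and 3 lower. Endothelial markers had 499, 2767 and 4721 CPM, with 1 of 2 called higher. Muscle markers had 265, 1423 and 1360 CPM and neural markers 327, 3952 and 1170 CPM, each with 1 of 2 called higher. Erythroid markers had 50789, 36834 and 154497 CPM (1 of 2 higher), and leukocyte markers 234, 474 and 1020 CPM (1 of 3 higher). Epithelial markers had 3429, 1660 and 1258 CPM (1 higher and 1 lower of 5), and the liver marker 343, 474 and 429 CPM (0 of 1 called). Members with a count numbered 8, 6 and 8 of 8 for the mesenchymal stromal list, 7, 6 and 7 of 7 for the adipocyte list and 1, 3 and 5 of 5 for the leukocyte list. In Exo-ADSCs2 the leukocyte markers miR-150-5p, miR-142-3p, miR-223-3p and miR-155-5p were at 0 counts. In Exo-AT1 the leukocyte markers miR-142-3p and miR-223-3p and the stromal markers miR-145-5p and miR-31a-5p were. The remaining leukocyte marker, miR-142-5p, had 234, 158 and 238 CPM and was not called. miR-128-3p, the miRNA most like miR-125a-5p, is a member of the neural list. The part of these lists in the miR-125b-5p result was not tested.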

How the data were processed

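Small RNA of inserts of 15 to 35 nt was read for 36 cycles. Per the submitters' processing notes, Novoalign 2.07.11 and rn6 were used. How adaptors were trimmed and hairpins predicted is not given in the sources used here. The deposited tag files hold, per the file headers, whole-number counts of each tag on each hairpin. In them tags had at least 2 reads, and reads on several hairpins were divided between these, so rounding makes sums slightly exceed the reads (30, 46 and 446 counts of miR-125b-5p for 28, 41 and 438 reads). Tag length (other) is also in these deposited files. For Exo-ADSCs1 the deposited file is an alignment summary and was not used for counts. The deposited table of 45 miRNAs holds the authors' normalized reads, taken as a score because the factor is not stated, and the authors' fold, a ratio that equals the quotient of the group means after 10 is added to each, within 0.1%, in 45 of 45 entries.

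Tags were summed per arm over the copies of each named miRNA, and predicted hairpins were left out. Counts were tested with edgeR 4.0.16 in R 4.3.3 (quasi-likelihood, two-sided, no covariate, Benjamini-Hochberg, called at 0.05) after TMM scaling (factors 0.664, 1.39 and 1.08 for Exo-ADSCs2 and Exo-AT1 and Exo-AT2) and edgeR's filter (minimum count 10, minimum total 15). The common dispersion was 0.115, with 1 residual degree of freedom per miRNA. All 348 forms entered the filter and 183 were tested. Shares have Wilson 95% intervals. Alternatives were DESeq2 1.42.0, limma 3.58.1 with voom, other scaling and filters, tag subsets, and each library left out. Predicted hairpins in the fit, undivided reads, tags without mismatch in the fit, and the arm-use test were added after seeing the data. The test was tested on simulated data that had the common dispersion of the main fit in every library. That cannot show how the test does where the spread is larger or unequal. Named miRNAs were all miR-125 arm forms, their cluster neighbours, same-seed relatives and the 3 most alike tested miRNAs per 5p arm. Named tags were among the 5 most abundant of their arm in a library. The members, lists and marker sets were chosen with earlier results of these data known. The sequence of 1 hairpin is not reported here.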

Additional observations from a re-analysis of the deposited data

How the results depend on the processing

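No paired analysis was possible because the libraries with tag counts share only replicate number 2 between the groups. Over 10 tested settings miR-125b-5p had log2 fold changes of 2.56 to 3.70 and was called in 9, with adjusted p from 3.5e-09 to 0.535 (edgeR, DESeq2 or limma). With predicted hairpins included, a setting added after seeing the data, it was 2.85 and not called, and 0 miRNAs were called higher and 0 lower. That fit has more features and a common dispersion of 1.80 in place of 0.115. miR-125a-5p (0.84 to 2.52, adjusted p 0.0608 to 0.677) and miR-125b-3p (-1.27 to 0.42) were called in none of the 10. Leaving out each library that could be left out gave 2.69 to 2.99 for miR-125b-5p, 1.62 to 1.74 for miR-125a-5p and -0.68 to 0.16 for miR-125b-3p, values with no test because no residual degree of freedom remains. DESeq2 size factors gave 23 miRNAs called higher and 30 lower, total-count scaling 46 and 19, against 35 and 35. The median log2 fold change was 0.08 and 1.21 under these, against 0.37. Total-count scaling also turned miR-125b-3p to 0.42, let-7e-5p to 0.47 and let-7c-5p to 0.28. miR-99b-3p was -0.30 with DESeq2 size factors, -0.74 in the DESeq2 test, -0.13 with tags of 1 miRNA name only and -0.16 with predicted hairpins. Tags of 20 to 25 nt gave 0.35 for miR-100-5p and -2.25 for the 3p arm of miR-125b relative to its hairpin. They also gave log2 ratios of miR-125a-5p to miR-125b-5p of 0.32 (Exo-ADSCs2) and -1.94 (Exo-AT2). For miR-351-5p the fitted value was 3.69 without Exo-AT1 and -4.33 without Exo-AT2, where its group is at 0 counts and the value is set by the prior count and gives no direction. Tags with no mismatch gave, for miR-125a-5p, annotated starts of 100% in Exo-ADSCs2 and Exo-AT2, later starts of 0% in Exo-AT2 and whole forms of 100% in Exo-AT1. For miR-125b-5p they gave short tags of 100% in Exo-ADSCs2, early starts of 0% in Exo-AT1 and 1.01% in Exo-AT2, and annotated starts of 80.4% and whole forms of 45.2% in Exo-AT2. The cause of these shifts was not tested, beyond what each setting leaves out. Of the other results under an alternative, 138 were classed as unchanged, 29 lost their call, 4 gained one, 8 moved and 8 reversed. Where there was a test, unchanged means the same direction and side of the threshold. For a library left out it means a shift below the Exo-AT SD, with a change of sign allowed where the main fit made no call. Without Exo-AT2, let-7e-5p was thus classed as unchanged at 0.695 against -0.43. For 3p shares it means a value within the main Wilson interval. In Exo-AT1 miR-125a-5p had 6 counts and the 3p arm of miR-125b 3.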

Other observations

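The values of the authors' deposited table did not stand in 1 ratio to the tag counts. In Exo-AT1 the value in the authors' deposited table was 69.8 per tag count for miR-125a-5p and 26.2 for miR-125b-5p, with a median of 63.8 over 43 miRNAs of the table. In Exo-AT2 it was 2.40 and 1.40 in the authors' deposited table, with a median of 2.23 over 43. In Exo-ADSCs2 it was 1.4 and 0.7 in the authors' deposited table, with a median of 1.38 over 39. miR-125b-5p therefore stood below the median, and miR-125a-5p just above it, in each of these 3 libraries.

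A 25-nt tag of miR-125a-5p in Exo-ADSCs2 carried 3 inserted bases in front of the mature sequence, with 3 counts there and 0 in both Exo-AT libraries. It is cATTCCCTgagaccctttaacctgt, with bases 2 to 8 in capitals, and it was chosen after its values were seen.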
